A study of Homo sapiens with 24 samples.

Results

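PEG10 and 9 other imprinted genes (SGCE, PEG3, MEST, CDKN1C, PHLDA2, NDN, PLAGL1, GRB10 and DLK1) were followed in 3 estrogen receptor-positive human breast cancer cell lines cultured at low or high glucose. The 10 genes were taken by symbol from a table of 18889 genes, and all 10 were found there. They were chosen with earlier results on these cultures known, so their glucose changes and their differences between lines are given as a description, without p-values, and nothing rests on whether they passed a test. HCC1500 cells, MDA-MB-175 cells and ZR-75-30 cells were each grown with 5 mM glucose (low glucose, LG) or 25 mM glucose (high glucose, HG) for 48 hours, with 4 cultures in each of the 6 groups, and RNA was sequenced on an Illumina HiSeq. LG is the study's control condition, and all groups share the same handling: cells conditioned in low glucose medium and then moved to serum-free medium. Each line stems from a single patient's tumor cells, and the labels do not say whether the 4 flasks of a group were set up on separate days, so the spread given here is that between flasks.

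Imprinted genes are expressed mainly from the copy inherited from 1 parent, because DNA methylation laid down in the egg or sperm silences the other copy. The paternally expressed PEG10 descends from a retrotransposon and encodes proteins with the gag and pol domains of that ancestor; it is needed for the placenta and is often abundant in tumors. In the adult breast, imprinted genes are studied mainly as regulators of growth whose parental marks can be lost in cancer.

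The values are normalized counts, that is, whole reads divided by a factor for each sample. They are per gene, so which parental copy the reads came from was not measured. The reads recovered from them ran from 9140024 to 17998819 per culture, and 3 reads, taken here as the floor of detection, were worth between 0.953 and 2.29 normalized counts. These limits cover counting error only. In HCC1500 the LG libraries (13190982 to 17998819 reads) were all deeper than the HG libraries (9423472 to 12140912 reads), and the part of depth in the results of this line was not tested. Changes are on the log2(value + 1) scale, as HG minus LG with the standard error (SE). The limma test across all genes tested, at a Benjamini-Hochberg adjusted p under 0.05, called 25.7% of the 17029 genes tested in MDA-MB-175 (11.9% higher and 13.7% lower in HG). The share was 46.0% for ZR-75-30 (23.4% and 22.7%) and 20.5% for HCC1500 (7.46% and 13.0%). All 8 luminal epithelial markers examined had reads in every line, although CDH1, the adhesion protein of epithelial junctions, averaged 55.6 in ZR-75-30 LG against 6499 and 8223 in the MDA-MB-175 and HCC1500 LG cultures. The fibroblast marker THY1 was at 0 in all 24 cultures, and the summed level of 6 fibroblast markers ran from 78.6 to 262, most of it COL1A1. Without COL1A1 the sum was highest in MDA-MB-175, at 22.6 to 34.7. It was 1.66 or less in ZR-75-30 and 6.03 to 11.2 in HCC1500 LG. Another collagen gene, COL1A2, averaged 18.8 in MDA-MB-175 LG and was called lower in HG, at 10.7.

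HCC1500 HG replicate 3 (HG3) stood apart from the other 3 HG cultures of its line, so results of HCC1500 are given with and without it. Between HG3 and the mean of the other 3, 24.7% of genes differed by more than 1 on the log2 scale, and the difference went with the annotated exon length of the gene (Spearman's rho of -0.56 across 12488 genes of 1 library, which are not independent). PEG10, with 6689 exon bases, and PEG3, with 9769, were lower in HG3 by 0.89 and 1.31, which was below all but 8.4% and 3.5% of genes. PHLDA2, with 920 exon bases, was higher by 1.23. SGCE, with the longest annotated exons of the 6 (20876 bases, joined over all its annotated transcripts), was higher by 0.43. On this measure it went against the trend, but the length of the transcripts present in these cells was not measured. MEST (4767) was higher by 0.41. GRB10, with 9795 exon bases, differed by 0.03. Without HG3 the share of genes called in HCC1500 was 58.5% (20.9% higher and 37.7% lower), and the median change of all genes was -0.12 as deposited but -0.01 after median-of-ratios scaling. The scaling also moved the share of called genes that were higher in HG, from 36.4% to 49.2% with HG3 and from 35.7% to 51.0% without it.

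**Figure D1:**
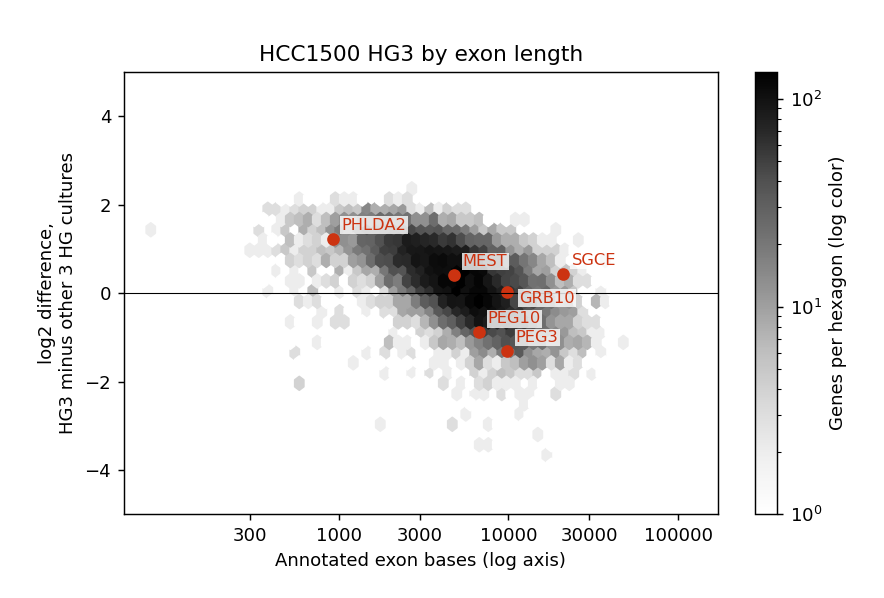
The log2 difference of HCC1500 HG3 from the mean of the other 3 HCC1500 HG cultures (vertical axis) against annotated exon bases (horizontal log axis). Gray hexagons count genes, darker for more genes, and red points mark the 6 imprinted genes with a level to compare. PEG3 at -1.31 and PEG10 at -0.89 lay in the lower part of the cloud, and PHLDA2 at 1.23 in the upper part.

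The 10 genes fell into those with a clear level and those near or at 0. More than 3 reads in each of the 4 LG cultures were counted for 6 of the 10 in MDA-MB-175 and in HCC1500 and for 5 in ZR-75-30. PEG10, SGCE, MEST, PHLDA2 and GRB10 passed in all 3 lines and PEG3 in MDA-MB-175 and HCC1500, whereas CDKN1C, NDN, PLAGL1 and DLK1 did not pass in any line. The filter on low values (at least 0.5 in at least 4 of the 8 cultures of a line) left 6 of the 10 genes in HCC1500, 7 in ZR-75-30 and 8 in MDA-MB-175. Of these, 1 of 8 was called in MDA-MB-175 (PEG10, lower) beside 25.7% of all genes. In ZR-75-30 it was 3 of 7 (PEG10 and PHLDA2 lower, GRB10 higher) beside 46.0%, and in HCC1500 1 of 6 (GRB10, lower) beside 20.5%. Without HG3, 4 of 6 were called in HCC1500 (PEG3 higher; PEG10, MEST and GRB10 lower) beside 58.5%. The groups of the called genes did not overlap in MDA-MB-175 and ZR-75-30, as was so for 26.6% and 42.0% of all genes tested there. Nothing is read from these counts, because the genes were chosen with these contrasts known.

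PEG10 (ENSG00000242265; chromosome 7, 94285637 to 94299007, plus strand, in a GENCODE annotation lifted to GRCh37) was among the most abundant transcripts of all 3 lines. In LG its mean rank among all 18889 genes was 13 in HCC1500, 46 in MDA-MB-175 and 60 in ZR-75-30. Per kilobase of annotated exon it had rank 54, 147 and 143 of 18183 genes in the same order. Its values were 1897, 1198 and 1587 normalized counts per kilobase. For this scale the exons of all annotated transcripts of a gene were joined, so it depends on the annotation. PEG10 alone took between 0.221% and 0.226% of all reads in HCC1500 LG.

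In ZR-75-30 the PEG10 values were 10443, 10835, 10687 and 10487 in LG and 3294, 3265, 3353 and 3408 in HG. The HG cultures were all far below the LG cultures, and the 4 flasks of each group lay close together. The mean fell from 10613 ± 182 to 3330 ± 63.5 (SD, n = 4), 3.19-fold, with a log2 change of -1.67 ± 0.03 (SE). As a share of all reads PEG10 went from between 0.144% and 0.15% to between 0.0438% and 0.0469%, and its rank went from 60 to 317. Of the 15834 genes tested in this line, 0.24% had a lower log2 change, and by the drop in mean normalized counts (7283) PEG10 had rank 8. In these bulk cultures, fewer cells with the transcript and less transcript per cell cannot be told apart. The summed level of the 8 luminal markers was also lower in ZR-75-30 HG (34942 to 40806) than in LG (49036 to 53679), and its part in the result was not tested. Of the 8, 5 were called lower and 1 higher, beside 22.7% and 23.4% of all genes. In MDA-MB-175 4 of the 8 were called lower and 1 higher, beside 13.7% and 11.9%. The sums overlapped there, at 54270 to 64553 in LG and 57753 to 62591 in HG.

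In MDA-MB-175 the PEG10 values were 7557, 8312, 8010 and 8172 in LG and 5818, 6255, 6313 and 5820 in HG. The groups did not overlap, and the gap between them was smaller than in ZR-75-30. The mean fell from 8013 ± 328 to 6052 ± 269 (SD, n = 4), 1.32-fold, with a log2 change of -0.41 ± 0.04 (SE). In this line 9.06% of genes had a lower log2 change, while by the drop in mean normalized counts (1961) PEG10 again had rank 8.

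In HCC1500 the PEG10 values were 12719, 12614, 12738 and 12682 in LG and 10176, 10441, 5560 and 10236 in HG, where 5560 was HG3. All HG cultures were below all LG cultures with or without HG3. Groups without overlap, in either direction, were seen for 32.4% of all genes tested with it and 58.1% without it. HG lay below LG for 3067 of 16361 genes with HG3 and 6020 of 16235 without it. With all 8 cultures the log2 change was -0.52 ± 0.20 and did not pass the test. Without HG3 PEG10 fell, from 12688 ± 54.6 (SD, n = 4) to 10284 ± 139 (SD, n = 3), 1.23-fold, with a log2 change of -0.30 ± 0.02. In that fit 34.6% of the 16235 genes tested had a lower log2 change. By the drop in mean normalized counts (2404) PEG10 had rank 15. Without HG3 and after median-of-ratios scaling the change was -0.18 and was still called.

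**Figure D2:**
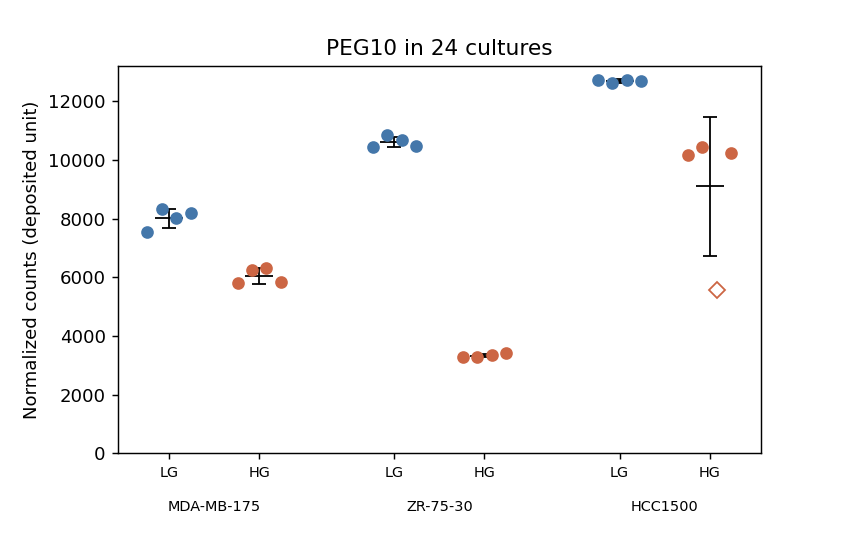
PEG10 in normalized counts (vertical axis, from 0) in each culture at low (LG, blue) and high (HG, orange) glucose in the 3 lines; black bars are the mean ± SD of 4 cultures and the open diamond is HCC1500 HG3. The HG cultures lay below the LG cultures in each line, at 3265 to 3408 against 10443 to 10835 in ZR-75-30.

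The order of the lines by PEG10 was not the same at both glucose levels. In LG it was HCC1500, then ZR-75-30, then MDA-MB-175, and the cultures of no line overlapped with those of the next. HCC1500 exceeded ZR-75-30 by 0.26 ± 0.03 on the log2 scale and ZR-75-30 exceeded MDA-MB-175 by 0.41 ± 0.03 (SE). In HG ZR-75-30 came last, and its difference from MDA-MB-175 was -0.86 ± 0.17 on the log2 scale, again without overlap. HCC1500 HG3 (5560) lay below the MDA-MB-175 HG cultures, and the other 3 HCC1500 HG cultures above them.

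SGCE (ENSG00000127990; chromosome 7, 94153516 to 94285884, minus strand) encodes epsilon-sarcoglycan, a membrane protein, and starts head to head with PEG10 from the same imprinted region. The annotation gives the pair 219 shared exon bases on opposite strands, and whether reads were counted by strand is not given in the sources used here. SGCE was read at a small fraction of the level of its partner. Its mean was 130 in MDA-MB-175 LG, against 8013 for PEG10, and 229 in ZR-75-30 LG, against 10613. Per kilobase of exon it had 6.24 normalized counts in MDA-MB-175 LG, against 1198 for PEG10, and 11.0 in ZR-75-30 LG, against 1587. In HCC1500 LG it had 10.9. The joined exons of SGCE (20876 bases) are longer than those of PEG10 (6689), which widens the gap per kilobase.

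In ZR-75-30, where PEG10 fell 3.19-fold, SGCE was 222, 245, 223 and 227 in LG and 207, 236, 210 and 238 in HG. These values overlapped, with a log2 change of -0.04 ± 0.06 (SE). In MDA-MB-175 SGCE was 129, 129, 125 and 139 in LG and 154, 143, 131 and 155 in HG, again with overlap and a change of 0.16 ± 0.08. In HCC1500 the values were 227, 221, 227 and 233 in LG and 195, 219, 287 (HG3) and 222 in HG, with changes of 0.01 ± 0.12 and, without HG3, -0.10 ± 0.06.

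The genes on either side of the pair moved in both directions or were not called. The 6 nearest genes tested in at least 1 line on each side, by their order in the RefSeq gene table, were CASD1, COL1A2, BET1, GNG11, GNGT1 and TFPI2 beyond SGCE and PPP1R9A, PON1, PON3, PON2, PDK4 and DYNC1I1 beyond PEG10. In the test across all genes 3 of 11 rose and 2 fell in MDA-MB-175, 2 of 8 rose and 2 fell in ZR-75-30, and 2 of 10 rose and 1 fell in HCC1500 (3 and 1 without HG3). These counts stand beside 25.7%, 46.0% and 20.5% of all genes called in the same lines, and 58.5% in HCC1500 without HG3. CASD1, the nearest on the SGCE side, fell in ZR-75-30 (-0.26 ± 0.05, limma adjusted p = 0.000592) and was not called in the other lines. PPP1R9A, the nearest on the PEG10 side and itself reported as imprinted in some tissues, changed by 0.08 in both MDA-MB-175 and ZR-75-30 and was not called in any line. PON2, an antioxidant lactonase, fell in all 3 lines, by -0.19, -0.15 and -0.71 on the log2 scale (limma adjusted p = 0.0412, 0.0208 and 0.00383). PDK4, which restrains glucose oxidation in mitochondria, rose from 92.2 to 149 in MDA-MB-175 (0.68 ± 0.09, limma adjusted p = 3.5e-05) and, from a mean under the floor, from 0.727 to 4.24 in HCC1500 (1.53 ± 0.34, limma adjusted p = 0.0137).

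TFPI2, on the SGCE side, rose in all 3 lines. It encodes tissue factor pathway inhibitor 2, a secreted inhibitor of serine proteases, and is imprinted in the placenta. In MDA-MB-175 its values were 28.9, 22.8, 27.3 and 26.5 in LG and 54.9, 49.4, 49.6 and 65.2 in HG. In ZR-75-30 they were 5.54, 6.26, 11.4 and 12.2 in LG and 21.4, 30.4, 23.4 and 28.1 in HG. In HCC1500 they were 72.6, 77.2, 63.7 and 69.3 in LG and 182, 200, 326 (HG3) and 193 in HG. No line had overlap between the groups. TFPI2 rose 2.08-fold, 2.92-fold and 3.19-fold, with log2 changes of 1.02 ± 0.14, 1.50 ± 0.25 and 1.62 ± 0.19 (limma adjusted p = 3.61e-05, 8.74e-05 and 0.000623). Without HG3 the change in HCC1500 was 1.43 ± 0.08 (limma adjusted p = 3.97e-11). The annotation gives TFPI2 and its neighbor GNGT1 44 shared exon bases on opposite strands, and GNGT1 was at 4.46 or less in every group mean.

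PHLDA2 (ENSG00000181649; chromosome 11, 2949503 to 2950650, minus strand), a maternally expressed pleckstrin homology domain protein that restrains placental growth, was the other gene of the 10 that fell in ZR-75-30. Its values there were 216, 190, 205 and 193 in LG and 98.4, 108, 87.5 and 80.2 in HG. No HG culture reached the LG range. PHLDA2 fell 2.15-fold, from 201 ± 11.7 to 93.5 ± 12.2 (SD, n = 4), with a log2 change of -1.10 ± 0.09 (SE).

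In MDA-MB-175 PHLDA2 was 304, 342, 346 and 221 in LG and 377, 346, 354 and 330 in HG. The groups overlapped, with 2 of the LG cultures inside the HG range, and the log2 change was 0.23 ± 0.11. In HCC1500 it was 36.1, 36.8, 34.5 and 40.0 in LG and 21.8, 41.3, 80.9 (HG3) and 43.4 in HG. The highest and the lowest of the 8 cultures were both in HG, and the change was 0.19 ± 0.33 with HG3 and -0.11 ± 0.19 without it. Between lines at LG, HCC1500 stood 2.41 ± 0.12 below ZR-75-30 on the log2 scale and 2.99 ± 0.12 below MDA-MB-175.

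GRB10 (ENSG00000106070; chromosome 7, 50657760 to 50861159, minus strand) encodes an adaptor that binds the insulin and insulin-like growth factor receptors and dampens their signaling, and its imprinting depends on tissue and promoter. It moved in opposite directions in 2 of the lines. In ZR-75-30 the values were 536, 550, 550 and 515 in LG and 751, 722, 733 and 686 in HG. In HCC1500 they were 894, 870, 877 and 919 in LG and 739, 743, 769 (HG3) and 781 in HG. Neither line had overlap between the groups. GRB10 rose in ZR-75-30 by 0.43 ± 0.04 and fell in HCC1500 by -0.23 ± 0.07 on the log2 scale, or -0.24 ± 0.03 without HG3. With all cultures the HCC1500 call was lost under DESeq2, edgeR, other scalings and the replicate block, where the change lay between -0.17 and -0.30, and when any culture but HG3 was left out. Without HG3 it was called at -0.12 after median-of-ratios scaling and in edgeR.

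In MDA-MB-175 GRB10 was far lower, at 46.6, 63.0, 38.7 and 39.7 in LG and 36.6, 43.7, 33.2 and 40.5 in HG. These groups overlapped, with a change of -0.26 ± 0.16. At LG the level in HCC1500 exceeded that in MDA-MB-175 by 4.24 ± 0.11 on the log2 scale, and that in ZR-75-30 exceeded it by 3.52 ± 0.11.

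PEG3 (ENSG00000198300; chromosome 19, 57321445 to 57352096, minus strand) encodes a paternally expressed zinc finger protein linked to growth control and to the p53 response. It was listed at 0 in all 8 ZR-75-30 cultures. In HCC1500 LG it was 620, 621, 596 and 614, and in MDA-MB-175 LG it was 121, 145, 138 and 143. Against the floor of 3 reads in the shallowest ZR-75-30 LG library (2.29), the mean of HCC1500 was at least 268-fold higher and that of MDA-MB-175 at least 59.7-fold higher. PEG3 shares 1264 exon bases on its own strand with ZIM2, a neighbor with a mean of 8.07 in HCC1500 LG, and reads of this stretch may be split between them.

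With glucose, PEG3 showed no call in MDA-MB-175, where HG was 128, 128, 140 and 126 and the log2 change was -0.06 ± 0.08. In HCC1500 HG it was 688, 684, 276 and 687, where 276 was HG3. That culture decided whether a change was called. With all cultures the change was -0.16 ± 0.28, or 0.01 in edgeR and 0.02 in DESeq2, and was not called. Without HG3 PEG3 rose by 0.16 ± 0.03, from 613 ± 11.5 (n = 4) to 686 ± 2.34 (SD, n = 3). After median-of-ratios scaling without HG3 the change was 0.29.

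MEST (ENSG00000106484; chromosome 7, 130126012 to 130146306, plus strand), also called PEG1, encodes a paternally expressed enzyme of the hydrolase fold that is linked to fat cell growth. In MDA-MB-175 it was 358, 386, 418 and 416 in LG and 426, 390, 390 and 396 in HG. In ZR-75-30 it was 213, 245, 220 and 175 in LG and 221, 222, 219 and 211 in HG. The groups overlapped in both lines, with changes of 0.02 ± 0.06 and 0.04 ± 0.08.

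In HCC1500 MEST was 505, 541, 513 and 509 in LG and 457, 440, 595 (HG3) and 444 in HG. HG3 alone lay above the LG cultures, and the other 3 lay below them. The change was -0.11 ± 0.11 with HG3, and without it MEST fell by -0.21 ± 0.04. After median-of-ratios scaling without HG3 the change was -0.09 and was no longer called. The annotation gives MEST 1314 exon bases shared with opposite-strand genes, COPG2 among them, and COPG2, a subunit of the coatomer of transport vesicles, was read at 217 in HCC1500 LG.

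**Figure D3:**
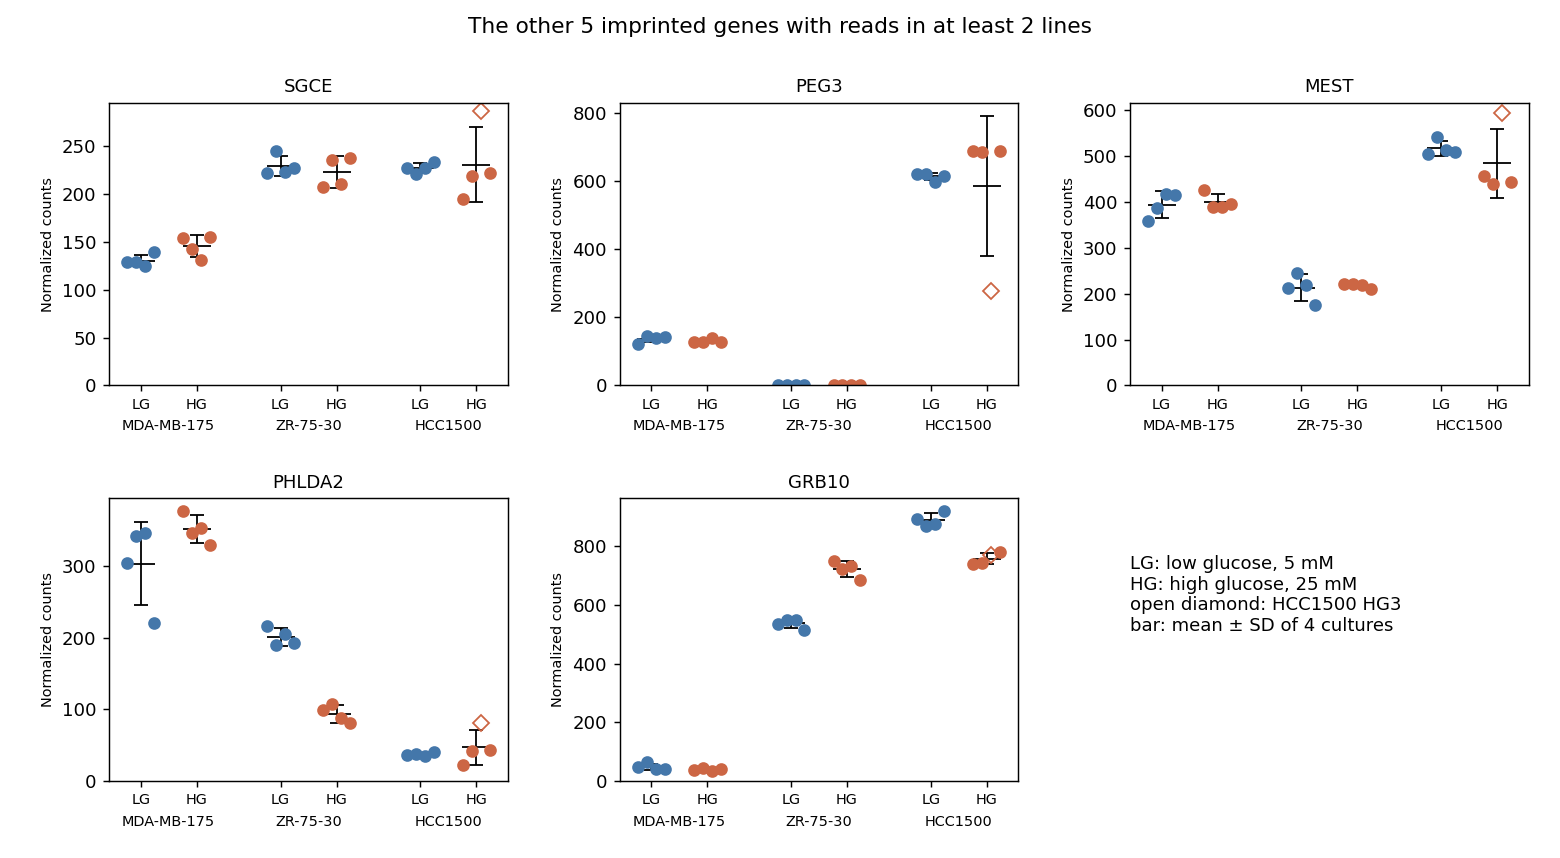
Normalized counts (vertical axes, each from 0) of SGCE, PEG3, MEST, PHLDA2 and GRB10 in each culture at low (LG, blue) and high (HG, orange) glucose; black bars are the mean ± SD of 4 cultures and the open diamond is HCC1500 HG3. PHLDA2 and GRB10 separated by glucose in ZR-75-30, in opposite directions, and PEG3 was at 0 throughout that line.

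The other 4 genes gave few or no reads. CDKN1C (ENSG00000129757), the maternally expressed cyclin-dependent kinase inhibitor p57, was highest, with 2 to 5 reads in MDA-MB-175 LG and 3 to 10 in HG. In ZR-75-30 CDKN1C had 1 to 4 reads in LG and 2 to 7 in HG, and in HCC1500 at most 2. Its changes were 0.43 ± 0.37 in MDA-MB-175 and 0.53 ± 0.36 in ZR-75-30, neither called. PLAGL1 (ENSG00000118495), a zinc finger regulator that controls other imprinted genes, had at most 4 reads in any culture and no read in HCC1500 LG. DLK1 (ENSG00000185559), a Notch-type ligand of precursor cells, had 1 read in each of 2 cultures and none in the other 22. NDN (ENSG00000182636), which encodes the growth suppressor necdin, was at 0 in all 24. For these 4 genes a glucose change was not detectable at this depth.

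**Figure D4:**
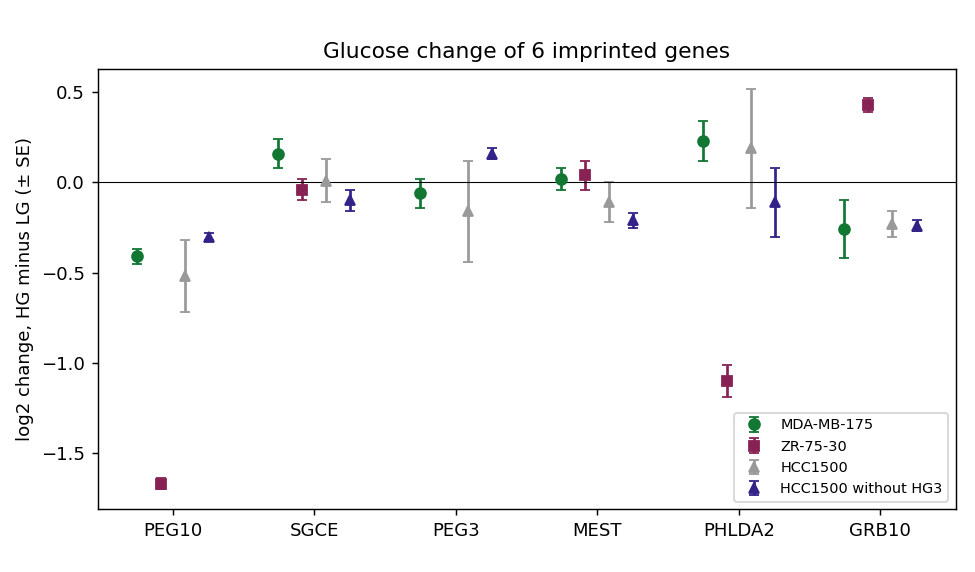
Log2 change from low to high glucose (vertical axis, HG minus LG, on the log2(value + 1) scale) of the 6 imprinted genes with a level to compare; symbols mark the lines and bars the SE, with HCC1500 shown with all cultures (gray) and without HG3 (dark blue). PEG10 was below 0 in each line, from -0.30 in HCC1500 without HG3 to -1.67 in ZR-75-30, whereas GRB10 was above 0 in ZR-75-30 alone.

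The comparison of lines was carried to a wider list of imprinted genes, of which 38 of 48 were in the table and none is among the 10. Levels of more than 3 reads in each LG culture were found for 29 of the 38 in MDA-MB-175 and 24 in each of the other lines. Of the 38, 19 passed in all 3 lines, 6 in 2 lines, 8 in only 1 line and 5 in none. Between lines at LG (limma adjusted p under 0.05 and a log2 difference of at least 1), 13 of 33 genes tested differed between ZR-75-30 and MDA-MB-175, where 33.1% of all genes did. For HCC1500 it was 21 of 33 against MDA-MB-175, beside 42.7% of all genes, and 18 of 33 against ZR-75-30, beside 45.1%. In HG the counts were 11, 20 and 18 of 33, beside 34.4%, 43.3% and 45.7% of all genes, and without HG3 they were 12, 22 and 20, beside 35.5%, 43.0% and 45.8%. The median log2 differences of the list at LG were -0.37, -0.41 and 0.11, and those of all genes -0.18, 0.06 and 0.25. Of the 10 genes, 2, 4 and 4 of 8 tested passed the same limits at LG, and 3, 4 and 5 in HG with or without HG3.

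Several imprinted regions were read in some lines and not in others, as PEG3 was; the genes named here were chosen after their values were seen. H19, a noncoding RNA, and IGF2, a fetal growth factor, lie in the same region of chromosome 11 and averaged 105 ± 15.7 and 55.4 ± 8.06 in MDA-MB-175 LG (SD, n = 4). In each LG culture of the other lines both were at 0.763 or less, under the floor. SNURF and SNRPN, of the Prader-Willi region on chromosome 15, ran from 593 to 649 and from 61.5 to 112 in MDA-MB-175 LG and from 349 to 383 and from 46.0 to 99.1 in ZR-75-30 LG. In HCC1500 LG they averaged 0.836 and 1.64, and the 2 share exon bases, so their reads may be split. MKRN3 of the same region had the reverse pattern, with 25.2 ± 3.36 in HCC1500 LG and at most 1.02 in any LG culture of the other lines. The noncoding MEG3, MEG8 and MEG9, which lie beside DLK1 on chromosome 14, had a mean of 0 in every LG group.

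**Figure D5:**
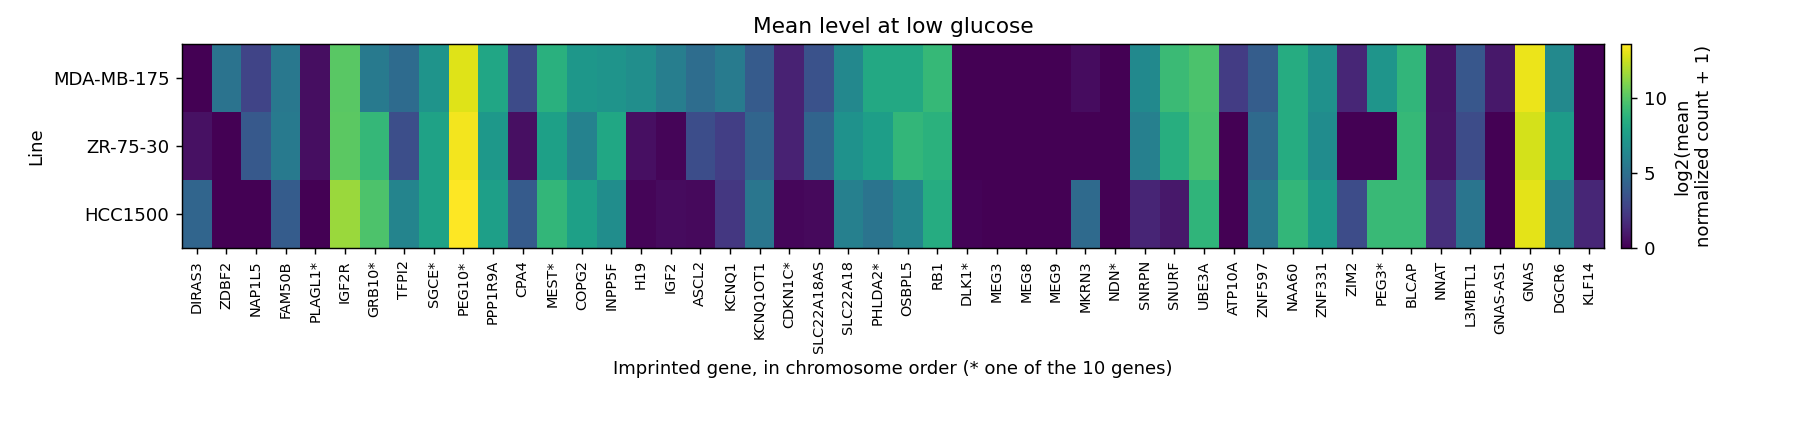
Mean level at low glucose, as log2(mean normalized count + 1) on the color scale, of the 10 genes (asterisks) and the 38 others of the wider imprinted list (horizontal axis, in chromosome order, with KLF14, which had no match in the annotation, last) in the 3 lines (rows). PEG10 and GNAS were bright in each line, and PEG3 was dark in ZR-75-30.

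Glucose moved a part of the wider imprinted list in each line, with no common direction. In MDA-MB-175 4 of 32 genes tested rose and 3 fell, with a median change of -0.02 beside -0.02 for all genes. In ZR-75-30 6 of 29 rose and 4 fell (median 0.07 beside 0.01), and in HCC1500 1 of 27 rose and 4 fell (median -0.03 beside -0.06). Without HG3 the counts in HCC1500 were 4 and 8. The shares called were 21.9%, 34.5%, 18.5% and, without HG3, 44.4%, each below the share of all genes called (25.7%, 46.0%, 20.5% and 58.5%). TFPI2 was called in the same direction in all 3 lines. Without HG3 so was IGF2R, the receptor that clears insulin-like growth factor 2 and carries lysosomal enzymes. IGF2R rose from 1139 to 1465 in MDA-MB-175 (0.36 ± 0.04, limma adjusted p = 1.39e-05) and from 1177 to 1733 in ZR-75-30 (0.56 ± 0.05, limma adjusted p = 1.83e-08). In HCC1500 it changed by 0.07 ± 0.22 with HG3 (limma adjusted p = 0.851), where HG3 was 1935 and the other 3 lay between 3757 and 3908, and rose by 0.32 ± 0.03 without it (limma adjusted p = 4.22e-09).

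The other genes named from the list were the called genes with the largest changes in each line. In MDA-MB-175 H19 fell by -0.33 ± 0.10 (limma adjusted p = 0.0263), from 105 to 82.2, and ATP10A, a phospholipid transporter, fell from 4.30 to 1.65 (-1.06 ± 0.34, limma adjusted p = 0.029), close to the floor. ATP10A was no longer called under 6 of 16 alternatives, edgeR and DESeq2 among them, and H19 under 5. In ZR-75-30 SLC22A18AS fell from 20.1 to 10.4 (-0.98 ± 0.28, limma adjusted p = 0.0074); it shares 227 exon bases with SLC22A18 on the opposite strand. FAM50B rose there from 46.0 to 65.4 (0.48 ± 0.14, limma adjusted p = 0.00984). In HCC1500 OSBPL5, a lipid transfer protein, fell from 73.2 to 35.9 (-1.04 ± 0.21, limma adjusted p = 0.00864), and it also fell in ZR-75-30, by -0.26 ± 0.05 (limma adjusted p = 0.000125). INPP5F, a phosphoinositide phosphatase, and COPG2 fell there by -0.61 ± 0.10 and -0.58 ± 0.10 (limma adjusted p = 0.0042 and 0.0036). COPG2 was also called lower in MDA-MB-175 (-0.24 ± 0.08, limma adjusted p = 0.0364), a call lost under 8 of 16 alternatives. Between lines, the glucose change differed for 6 of 35 genes of the list in the F test of the interaction, where 29.3% of all genes passed, and for 11 of 35 without HG3, where 48.6% did. TFPI2 (limma adjusted p = 0.24 and 0.227) and H19 (0.148 and 0.225) were not among them in either fit. Of the 10 genes, 3 of 8 tested passed, and 4 of 8 without HG3.

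A list of regulators, genes that write, read or remove DNA methylation or other chromatin marks at imprinted and other genes, was examined in the same way. The list held 18 genes in the table, among them DNA methyltransferases, TET oxidases and polycomb subunits. In MDA-MB-175 none rose and 7 of 18 fell, in ZR-75-30 1 of 17 rose and 6 fell, and in HCC1500 none rose and 6 of 17 fell (4 and 11 without HG3). The shares called were 38.9%, 41.2%, 35.3% and, without HG3, 88.2%, beside 25.7%, 46.0%, 20.5% and 58.5% of all genes, so that of ZR-75-30 was below the share of all genes. The median changes were -0.10, -0.12 and -0.26 (-0.21 without HG3), each lower than the median of all genes. DNMT1, UHRF1, HELLS, DNMT3B and EZH2 were called lower in all 3 lines. DNMT1, the methyltransferase that copies methylation after replication, fell by -0.95 ± 0.05 in ZR-75-30 (limma adjusted p = 5.19e-11), -0.48 ± 0.09 in HCC1500 (0.00535) and -0.24 ± 0.05 in MDA-MB-175 (0.00113). UHRF1, which brings DNMT1 to newly replicated DNA, fell by -1.57 ± 0.09, -1.29 ± 0.08 and -0.49 ± 0.05 in the same order (limma adjusted p = 6.9e-11, 5.04e-05 and 4.25e-06). HELLS, a chromatin remodeler, and DNMT3B, which sets new methylation, had their smallest changes in MDA-MB-175 (-0.17 ± 0.06 and -0.32 ± 0.10), where HELLS was no longer called under 8 of 16 alternatives and DNMT3B under 5. EZH2, the polycomb methyltransferase, fell by -1.40 ± 0.08, -0.46 ± 0.09 and -0.43 ± 0.06 in that order too (limma adjusted p = 2.35e-10, 0.00846 and 8.01e-05), and its call in HCC1500 was lost with the replicate block. DNA methylation itself was not measured.

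Relatives of the 10 genes by sequence family were compared last, with 28 in the table. In MDA-MB-175 5 of 28 rose and 1 fell, in ZR-75-30 5 of 23 rose and 5 fell, and in HCC1500 5 of 26 rose and 5 fell (8 and 13 without HG3). The shares called were 21.4%, 43.5%, 38.5% and, without HG3, 80.8%, beside 25.7%, 46.0%, 20.5% and 58.5% of all genes. CDKN1A, which encodes p21, a relative of CDKN1C and a target of p53, rose in all 3 lines. Its means went from 1384 to 1568 in MDA-MB-175, from 534 to 1028 in ZR-75-30 and from 1886 to 3714 in HCC1500, with changes of 0.18 ± 0.05, 0.94 ± 0.04 and 0.94 ± 0.17 (limma adjusted p = 0.0102, 9.66e-12 and 0.00639). Without HG3 the change in HCC1500 was 0.74 ± 0.03. PHLDA1 and PHLDA3, the relatives of PHLDA2, rose in MDA-MB-175 by 0.29 and 0.49 and in ZR-75-30 by 0.67 and 0.79. ZR-75-30 was the line in which PHLDA2 itself fell. In HCC1500 neither was called with all cultures (0.40 ± 0.13 and 0.88 ± 0.32, limma adjusted p = 0.0604 and 0.0891), and both rose without HG3, by 0.28 and 0.50.

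Among the retrotransposon-derived relatives of PEG10, LDOC1 rose in ZR-75-30 by 0.19 ± 0.06 (limma adjusted p = 0.0206), where LDOC1L and C22orf29 fell by -0.25 ± 0.05 and -0.16 ± 0.05 (limma adjusted p = 0.000736 and 0.00998). In HCC1500 RGAG4 rose by 0.63 ± 0.10 (limma adjusted p = 0.00356), and FAM127C and C22orf29 fell by -0.77 ± 0.17 and -0.38 ± 0.09 (limma adjusted p = 0.0135 and 0.0214). FAM127C also fell in MDA-MB-175, by -0.33 ± 0.11 (limma adjusted p = 0.0416). Without HG3 RGAG4 rose in HCC1500 (0.60), whereas LDOC1 (-0.47), LDOC1L (-0.29), C22orf29 (-0.44), FAM127A (-0.71), FAM127B (-0.40) and FAM127C (-0.95) fell. FAM127A, FAM127B and FAM127C are near-identical copies, so their reads may be split. The calls of LDOC1 in ZR-75-30, FAM127C in MDA-MB-175 and C22orf29 in HCC1500 were lost under 4 of 16, 9 of 16 and 7 of 18 alternatives.

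Genes with a pattern like that of PEG10 were sought over 23 cultures (all but HG3), as the Pearson correlation of log2 values after the mean of each line was removed, among 13280 genes with a mean of at least 10. The highest were SLC12A2, an ion cotransporter (r = 0.984), KPNB1, an importin (0.978), CRYM, a thyroid hormone binding protein (0.977), PGD, an enzyme of the pentose phosphate pathway (0.976) and TPM3, a tropomyosin (0.975). CRYM did not pass the filter on low values in HCC1500 without HG3. SLC12A2 changed by -0.54, -1.33 and, without HG3, -0.33 for MDA-MB-175, then ZR-75-30, then HCC1500. A value over 0.9 was reached by 230 genes, and the cultures of a line share their glucose groups, so this is a description. Among the 10 genes PHLDA2 came closest (r = 0.76), although it was called lower in ZR-75-30 alone. SGCE (0.04), PEG3 (0.00) and MEST (-0.04) lay near 0 and GRB10 at -0.43.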

How the data were processed

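RNA-seq of 24 cultures was used. The authors deposited a single table of normalized values (a signal per gene and sample), whose unit the labels do not state; their processing notes name edgeR and the hg38 genome, whereas the methods written for tumors name hg19, and the build and strand setting for these cultures are not given in the sources used here. Every value was a whole number of reads (within 0.01 of a read) divided by a factor per sample, and reads were recovered as such. Groups and replicate numbers came from the sample titles. Each line was fitted on its 8 cultures with limma 3.58.1 (R 4.3.3) on log2(value + 1), with a variance trend, for genes with at least 0.5 in at least 4 cultures, and lines were compared on the 12 LG cultures. Calls used a Benjamini-Hochberg adjusted p under 0.05 over all genes tested. Alternatives were edgeR 4.0.16 and DESeq2 1.42.0 on recovered reads, other pseudocounts, scalings and filters, a replicate block and leaving out each culture; the fits were tested on simulated data. The plan had assumed CPM, and its test was kept for these values.

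The 10 genes and all lists were chosen with earlier results of these data known. From the wider list the text names genes called alike in all 3 lines and, in each line, the 4 called genes with the largest change and no overlap. From the regulators and relatives it names genes called alike in all 3 lines, plus called relatives of PEG10. Gene positions and exon lengths came from a GENCODE annotation lifted to GRCh37 (96.3% of gene IDs matched), and neighbors from the RefSeq gene table of GRCh38.p14. No sequence is shown.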

Additional observations from a re-analysis of the deposited data

Results flagged for a closer look

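Of 34 sets of 4 cultures examined over the 10 genes, 4 held a culture far from the other 3 by Dixon's criterion, which chance meets in about 1 of 20 sets. HCC1500 HG3 accounted for 3 of them, with PEG10 at 5560, PEG3 at 276 and MEST at 595, and MDA-MB-175 HG3 for the other, with PEG3 at 140 against 126 to 128. GRB10 changed by 0.43 in ZR-75-30, where every HG culture lay above the LG cultures, and by -0.23 in HCC1500, where every HG culture lay below them. This is a description with no p-value, because the gene was chosen with these contrasts known.

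In the wider imprinted list the limma F test of a difference between lines in the glucose change called 6 genes. Its adjusted p was 1.49e-05 for INPP5F, 0.000545 for COPG2, 0.00221 for OSBPL5, 0.00628 for ATP10A, 0.0226 for SLC22A18AS and 0.043 for SLC22A18. In the fit without HG3 it was 2.63e-06, 8.25e-05, 4.96e-05, 0.00666, 0.00804 and 6.04e-06 in the same order. SLC22A18 went from a mean of 61.3 in LG to 27.3 in HG without HG3 in HCC1500. It went from 121 to 139 in ZR-75-30 and from 82.4 to 86.8 in MDA-MB-175. ATP10A had a mean of 0 in LG and HG of ZR-75-30 and HCC1500 (HG without HG3), where no change could be seen. In MDA-MB-175 it was close to the floor. SLC22A18AS was under the floor in HCC1500, with means of 0.271 in LG and 0.756 in HG without HG3. INPP5F and COPG2 fell in HCC1500 by -0.61 and -0.58, while INPP5F changed in ZR-75-30 by 0.15, a call that was lost under 6 of 16 alternatives, DESeq2 among them.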

How the results depend on the processing

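The direction of PEG10 was kept in each line under every alternative run, and with a culture left out it lay between -0.43 and -0.39 for MDA-MB-175, between -1.68 and -1.66 for ZR-75-30, and for HCC1500 between -0.61 and -0.30 (the last without HG3). At high in place of low glucose, the difference of ZR-75-30 from MDA-MB-175 for PEG10 was reversed (-0.86, with or without HG3). In HCC1500 the number of the 10 genes called was 1 as reported, 0 under DESeq2, edgeR, median-of-ratios scaling, scaling to an equal sum and the replicate block, and 0 to 4 with a culture left out (4 without HG3 and 0 without any other). Without HG3, as chosen after seeing the data, edgeR called 4 and median-of-ratios scaling 3. The same 2 alternatives called 15 and 15 of the wider list (12 without HG3 alone, range 4 to 12), 12 and 13 of the regulators (15, range 6 to 15) and 20 and 21 of the relatives (21, range 5 to 21, with 5 or 6 when any LG culture was left out). In MDA-MB-175 the wider list gave 3 to 8 calls with a culture left out (3 without HG3, 4 without HG4 or LG3). Between ZR-75-30 and MDA-MB-175 it gave 8 at a scaling to an equal sum and 9 to 13 with a culture left out, and the difference between lines in the glucose change was called for 11 of the list without HG3.

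It is not known if a replicate number marks a shared set-up. Deviations of cultures with equal numbers correlated on average by 0.05 (MDA-MB-175), 0.04 (ZR-75-30) and 0.02 (HCC1500). For other pairs the averages were lower in each line, at -0.02, -0.01 and -0.01. In the same order, 1, 1 and 2 cultures correlated best with their own number. Correlations this weak cannot settle if the cultures were paired. The replicate block called 2 of the 10 genes in MDA-MB-175 and 5 relatives in HCC1500.

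CDKN1C had at most 10 reads in any culture, PLAGL1 at most 4, DLK1 at most 1 and NDN none, which limits what can be said of their glucose changes.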
